A study of Mus musculus with 49 samples.

Results

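Besides Tardbp, which encodes TDP-43 itself, the genes Sod1, Optn, Vcp, Sqstm1, Ubqln2, Matr3, Pfn1, Kif5a and Nek1 are the mouse counterparts of human genes in which mutations are linked to amyotrophic lateral sclerosis (ALS). These 9 genes were taken by their symbols from the 45252 genes in the table. All 9 passed the filter on low counts that left 18220 genes for testing. RNA from about 30 mg of neocortex was sequenced in 49 mice, with 1 library per mouse, on a background that mixes C57BL/6J and C3H/HeJ. In bigenic rNLS8 mice, NEFH-tTA, a tetracycline transactivator under the promoter of the neurofilament heavy chain, drives tetO-hTDP-43ΔNLS, a human TDP-43 that lacks the signal for nuclear import, in neurons once doxycycline is withdrawn. The 17 ctrl-PBS mice were monogenic littermates that carried the tetO transgene alone and received PBS. The rNLS8 mice formed 3 groups, namely 10 TDP-PBS mice given PBS, 10 TDP-10+12 mice immunized with peptides 10 and 12 of TDP-43, and 12 TDP-15 mice immunized with the phosphorylated peptide 15. In all groups doxycycline was removed at 25.5 weeks of age and the mice were killed 3 weeks later, at 28.5 weeks. Vaccination started at 8 weeks of age, with 5 immunizations before and 1 after induction. Each used a total of 40 µg of peptide coupled to ovalbumin. The PBS groups were given PBS in place of these conjugates. A CpG oligonucleotide and Alhydrogel were the adjuvants.

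The proteins of these genes meet in a small number of cellular routes. Optineurin and p62, the products of Optn and Sqstm1, are receptors that carry ubiquitinated cargo into autophagosomes, Vcp is the ATPase that pulls ubiquitinated proteins out of complexes and membranes, and ubiquilin 2 shuttles such proteins to the proteasome. Profilin 1 feeds actin monomers to growing filaments, Kif5a is a heavy chain of the kinesin-1 motor for axonal transport, Nek1 is a kinase of cilia and DNA repair, superoxide dismutase 1 removes superoxide in the cytosol, and matrin 3 is an RNA-binding protein of the nuclear matrix that binds TDP-43.

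Each library held between 17775738 and 21033608 counts, so 3 counts, the smallest level the depth could show, corresponded to 0.139 to 0.165 CPM, the usual unit of counts scaled to a common library size. Tardbp, counted on the mouse genome, fell in TDP-PBS mice (log2 fold change -0.30, SE 0.05, adjusted p = 1.54e-06), from a ctrl-PBS median of 146.8 CPM to 120.0 CPM. Whether reads of the human transgene were also counted there was not tested. The summed level of 8 neuronal markers had a median of 8456 CPM in ctrl-PBS, 6885 in TDP-PBS, 6759 in TDP-10+12 and 6831 in TDP-15 mice, with no overlap between control and rNLS8 mice, and 5 of the 8 fell and 0 rose in each rNLS8 group. For 7 microglial markers the medians were 207, 282, 264 and 270 CPM in the same order, and 5 of the 7 rose in each group, while 0 fell in TDP-PBS and 1 fell in each immunized group. None of the 5 oligodendrocyte markers passed the test in any rNLS8 group. In RNA of whole tissue, fewer cells of a type and less RNA per cell cannot be told apart, and the part of these shifts in the changes below was not tested. Of 6 astrocyte markers, Gfap, the intermediate filament of reactive astrocytes, rose in TDP-PBS mice (log2 fold change 1.64, SE 0.18, adjusted p = 9.88e-11), with a median of 360 CPM against 120.0 in ctrl-PBS, while Slc1a2 and Gja1 fell. The TDP-10+12 mouse 301 stood apart with 1133 CPM of Gfap against a group median of 299 CPM. Summed over 4 markers of olfactory bulb and choroid plexus, 1 TDP-PBS, 2 TDP-10+12 and 1 TDP-15 mice exceeded every ctrl-PBS mouse. Taken singly, 2 of the 4 fell and 0 rose in TDP-PBS mice. They were Eomes (log2 fold change -3.23, adjusted p = 0.0160) and Omp (-2.68, adjusted p = 0.0138). By contrast, 2 rose and 0 fell in TDP-10+12, and 1 rose and 0 fell in TDP-15 mice. The highest ctrl-PBS mouse, at 360 CPM against a control median of 22.8, was itself far above most controls. It was kept, since a cut at the highest control can leave out rNLS8 mice only. The counts below are also given without mouse 301 and without the 4 rNLS8 mice.

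The levels of the 9 genes in ctrl-PBS mice spanned a wide range. Per kb of exonic length in the GENCODE M21 annotation, Kif5a was the most abundant with 350.6 ± 35.9 CPM per kb (SD, n = 17). Pfn1 followed with 106.5 ± 10.2, Ubqln2 with 89.0 ± 3.80 and Sqstm1 with 81.9 ± 4.53 CPM per kb. Vcp reached 25.9 ± 1.45, Matr3 19.3 ± 1.2 and Sod1 12.7 ± 1.23 CPM per kb. Optn with 3.34 ± 0.28 and Nek1 with 3.14 ± 0.39 CPM per kb were the lowest, and their ranges overlapped. The annotated exonic length of Sod1, 3970 bp, includes a transcript with retained introns. Over the 641 bp of its principal transcript the mean level of Sod1 was 78.8 CPM per kb. By the same measure Pfn1 reached 298 and Sqstm1 135 CPM per kb, above Ubqln2 at 89.0, so that the order of these genes depends on the length used. Whether reads that also match near-identical sequences were dropped in counting is not given in the sources used here, which bears on the level of Sod1, Vcp and Matr3.

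In TDP-PBS mice 4 of the 9 genes rose and 3 fell compared to ctrl-PBS mice, while Vcp and Matr3 did not pass the test. Optn, Kif5a, Pfn1 and Sqstm1 were the genes that rose, and Ubqln2, Sod1 and Nek1 those that fell. Over all genes tested, 21.9% rose and 21.6% fell, so that changes of this kind were common in this tissue. The median log2 fold change over the 9 genes was -0.01, against 0.00 over all genes tested. In TDP-10+12 mice 2 genes rose and 3 fell, with 20.8% and 20% of all genes. In TDP-15 mice 4 genes rose and 3 fell, with 23.6% and 23.2% of all genes. The 3 comparisons share the same 17 ctrl-PBS mice, so they are not independent of each other. Without mouse 301, Kif5a also rose in TDP-10+12 (3 rose, 3 fell) and Nek1 no longer passed in TDP-15 (4 rose, 2 fell). Without the mice with high olfactory bulb or choroid plexus markers, the TDP-PBS counts stayed at 4 and 3, those in TDP-10+12 were 2 and 2, without Nek1, and those in TDP-15 were 3 and 2, without Sqstm1 and Nek1.

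**Figure D1:**
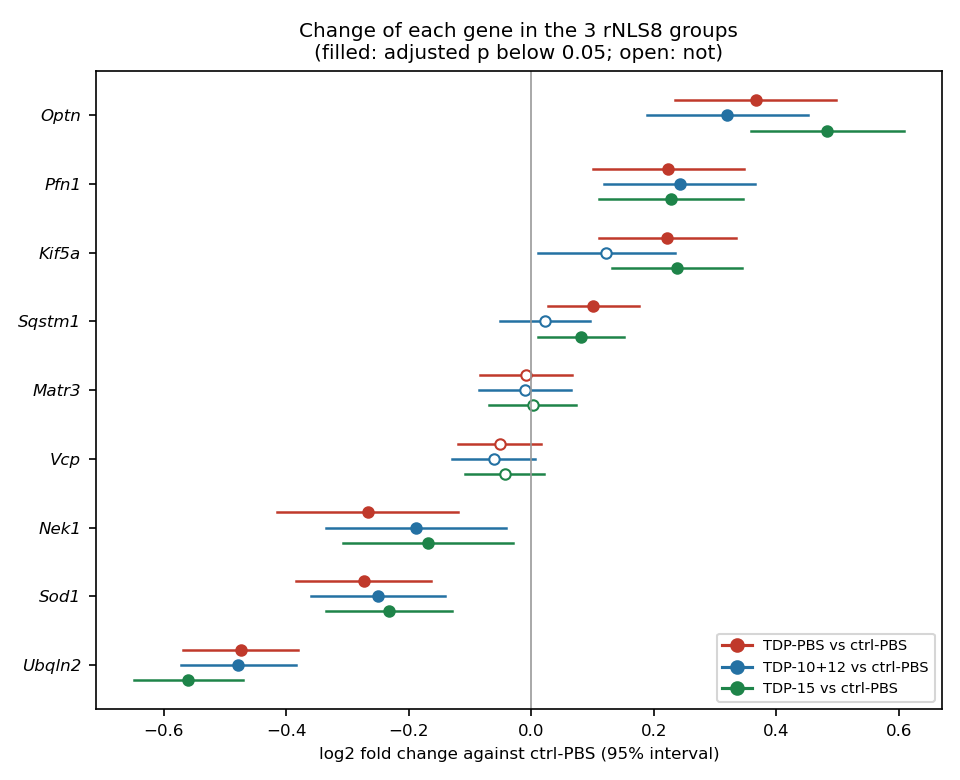
Log2 fold change of the 9 genes in TDP-PBS, TDP-10+12 and TDP-15 mice compared to ctrl-PBS (x axis), with lines for the 95% interval and filled points for an adjusted p under 0.05. The values run from -0.56 for Ubqln2 in TDP-15 to 0.48 for Optn in TDP-15, and the intervals of Vcp and Matr3 include 0 in all 3 groups.

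Among the autophagy receptors, Optn (GRCm38.p6 chr2:5020521-5064399, minus strand; positions are those of RefSeq) rose in all rNLS8 groups. Its level ranged from 10.6 to 14.4 CPM with a median of 12.7 in the 17 ctrl-PBS mice. In TDP-PBS mice it ranged from 12.7 to 19.0 CPM with a median of 15.9, and 8 of 10 mice exceeded the highest ctrl-PBS mouse. The TDP-10+12 mice ranged from 10.2 to 17.8 CPM with a median of 15.9. Here, 9 of 10 mice were above every ctrl-PBS mouse, whereas mouse 301 was below them all. In TDP-15 mice the range was 14.7 to 20.2 CPM with a median of 17.6. All 12 TDP-15 mice thus exceeded every control mouse, which held for 2.45% of all genes tested. On the log2 scale the rise was 0.37 (SE 0.07, adjusted p = 7.13e-06) in TDP-PBS, 0.32 (SE 0.07, adjusted p = 7.13e-05) in TDP-10+12 and 0.48 (SE 0.06, adjusted p = 4.55e-09) in TDP-15 mice. Of its exonic length, 1.95% overlaps an antisense gene.

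Sqstm1 (chr11:50200152-50210820, minus strand), the other receptor, changed far less. It ranged from 245 to 305 CPM with a median of 277 in ctrl-PBS, from 256 to 338 CPM with a median of 297 in TDP-PBS, from 258 to 300 CPM with a median of 278 in TDP-10+12 and from 263 to 318 CPM with a median of 293 in TDP-15 mice. The groups overlapped widely, with 2 TDP-PBS, 0 TDP-10+12 and 3 TDP-15 mice above every control mouse. The differences were small, with a log2 fold change of 0.10 (SE 0.04, adjusted p = 0.0210) in TDP-PBS and 0.08 (SE 0.03, adjusted p = 0.0488) in TDP-15 mice. In TDP-10+12 mice it was 0.02 with a 95% interval from -0.05 to 0.10, which did not pass. The call in TDP-15 mice was lost in 4 of 8 other analyses (adjusted p from 0.0323 to 0.113 over the 8). It was also lost when any 1 of 16 mice was left out, among them TDP-15 mouse 126 and ctrl-PBS mouse 280. Of the exonic length of Sqstm1, 17.3% overlaps Mrnip on the opposite strand, and how the counting treated strand is not given in the sources used here.

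**Figure D2:**
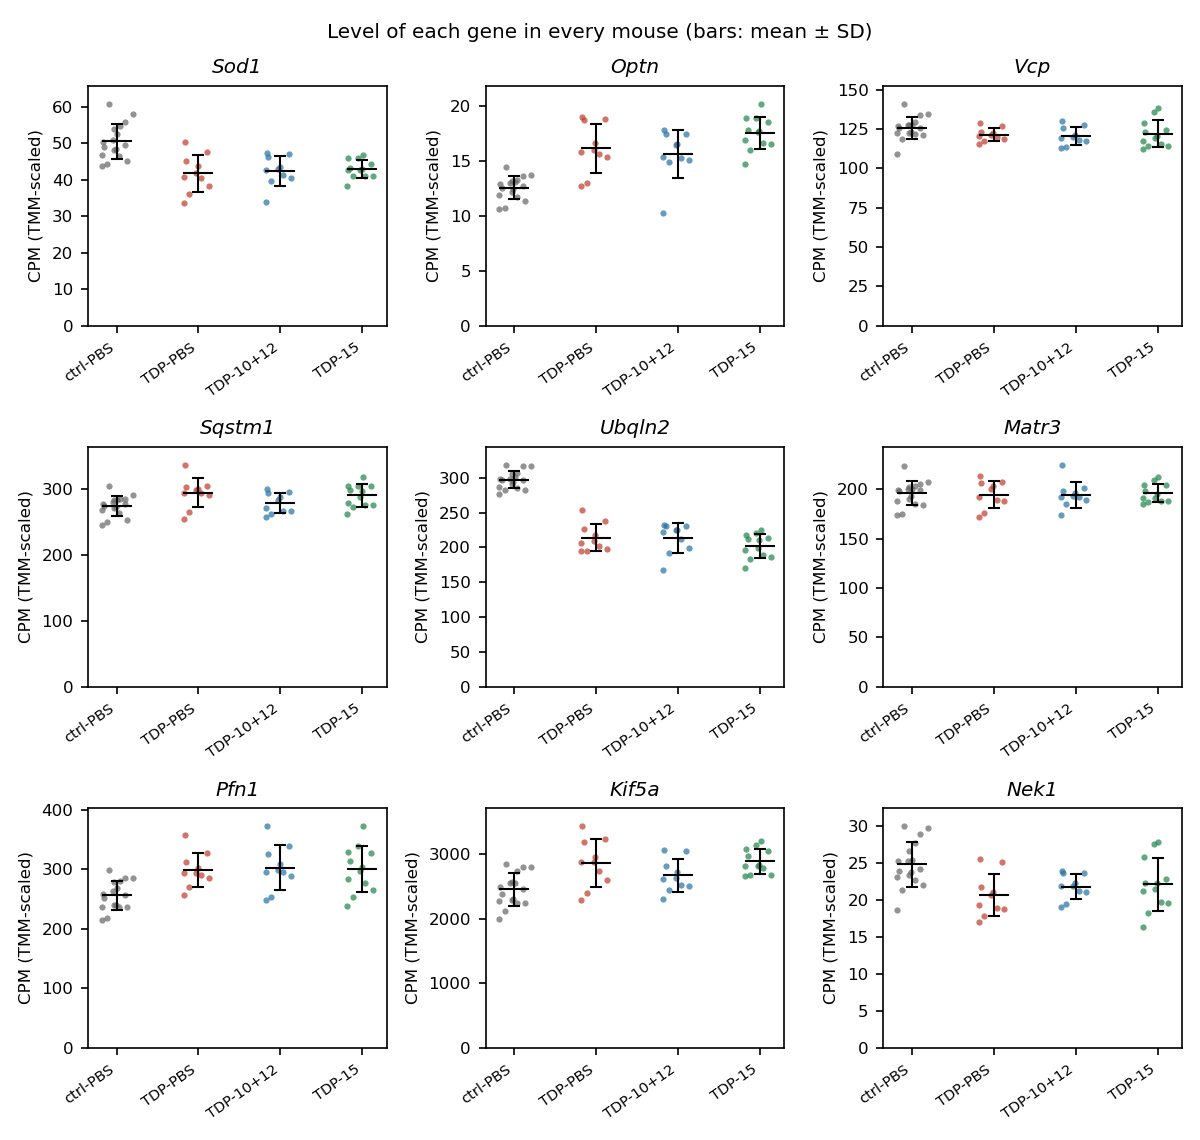
TMM-scaled CPM of each of the 9 genes (y axes, starting at 0) in every mouse by group (points), with bars for mean ± SD. For Ubqln2 every rNLS8 mouse lies under the lowest ctrl-PBS mouse at 277 CPM, and for Optn the mouse at 10.2 CPM in TDP-10+12 is mouse 301.

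Ubqln2 (chrX:153498232-153501562, plus strand), an X-linked gene with a single exon that encodes ubiquilin 2, showed the lowest log2 fold changes of the 9 genes in all 3 groups. It ranged from 277 to 319 CPM with a median of 298 in ctrl-PBS mice. The TDP-PBS mice lay between 195 and 253 CPM with a median of 208. The TDP-10+12 mice lay between 167 and 232 CPM with a median of 223, and the TDP-15 mice between 170 and 225 CPM with a median of 205. Hence all 32 rNLS8 mice were below every ctrl-PBS mouse, which was found for 1.64% of all genes tested and for no other gene of the 9. In TDP-PBS mice Ubqln2 fell by 28.0%, with a log2 fold change of -0.47 (SE 0.05, adjusted p = 3.95e-12). The log2 fold change was -0.48 (SE 0.05, adjusted p = 3.70e-12) in TDP-10+12 and -0.56 (SE 0.04, adjusted p = 2.10e-15) in TDP-15 mice. The lowest TDP-10+12 value came from mouse 301. Males and females did not differ beyond the spread between mice (log2 fold change of males against females -0.01, 95% interval -0.08 to 0.05).

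The AAA ATPase gene Vcp (chr4:42979964-43000507, minus strand) did not pass the test in any group. It ranged from 109 to 141 CPM with a median of 126 in ctrl-PBS, from 115 to 129 CPM with a median of 121 in TDP-PBS, from 113 to 130 CPM with a median of 120 in TDP-10+12 and from 113 to 139 CPM with a median of 120 in TDP-15 mice. All rNLS8 mice fell within the control range. The 95% interval of the log2 fold change was -0.12 to 0.02 in TDP-PBS, -0.13 to 0.01 in TDP-10+12 and -0.11 to 0.02 in TDP-15 mice. The processed pseudogene Vcp-rs matches Vcp transcripts at 99.05% identity over 2421 bp, so that reads could be split between them, and it held a mean of 49.8 ± 3.35 CPM (SD, n = 17) in ctrl-PBS mice. With the counts of both added, the log2 fold change in TDP-PBS mice was -0.05 (adjusted p = 0.15). With the level of the nearby Fam205a3 on chromosome 4 as a covariate, it was -0.06 (adjusted p = 0.190). A further 7.26% of the exonic length of Vcp overlaps 1700022I11Rik on the opposite strand.

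Sod1 (chr16:90220762-90226333, plus strand), the gene of the cytosolic copper-zinc superoxide dismutase, fell in all rNLS8 groups. Its level ranged from 43.8 to 60.8 CPM with a median of 49.6 in ctrl-PBS mice, from 33.6 to 50.2 CPM with a median of 41.3 in TDP-PBS, from 33.7 to 47.3 CPM with a median of 42.8 in TDP-10+12 and from 38.2 to 46.9 CPM with a median of 42.8 in TDP-15 mice. Below every control mouse were 6 of 10, 7 of 10 and 8 of 12 mice, and the other mice overlapped with the controls, up to 50.2 CPM in TDP-PBS mice. In TDP-PBS mice Sod1 fell by 17.3%, with a log2 fold change of -0.27 (SE 0.05, adjusted p = 4.49e-05). The log2 fold change was -0.25 (adjusted p = 0.000175) in TDP-10+12 and -0.23 (adjusted p = 0.000179) in TDP-15 mice. A processed pseudogene, Gm8566, matches it at 97.85% identity over 465 bp but held only 2.18 ± 0.37 CPM (SD, n = 17) in ctrl-PBS mice, and adding its counts left the TDP-PBS value at -0.27 (adjusted p = 4.65e-05).

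Sod1 and Vcp are shown with the 250 bases before their start, because among the 5 genes with an entry in the RefSeq promoter table (GRCm38.p6; Optn, Vcp, Sqstm1, Pfn1 and Sod1) only these 2 held a match to any of 4 stress response motifs. The motifs, searched on both strands, were TGACNNNGC of the antioxidant response element, CACGTG of the CLEAR element, GAANNTTC of the heat shock element and TGATGNAA of the ATF4 element. None of these 4 patterns overlapped another in the sequences printed. Capitals mark the matches. The sequence of Sod1 is chr16:90220512-90220761 on the plus strand and that of Vcp is chr4:43000508-43000757 on the minus strand.
Sod1: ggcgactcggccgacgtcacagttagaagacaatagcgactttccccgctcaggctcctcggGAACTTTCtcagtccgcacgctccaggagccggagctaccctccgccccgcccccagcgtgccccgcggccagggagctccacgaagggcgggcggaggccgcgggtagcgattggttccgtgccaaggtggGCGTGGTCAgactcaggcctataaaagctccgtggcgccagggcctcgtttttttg
Vcp: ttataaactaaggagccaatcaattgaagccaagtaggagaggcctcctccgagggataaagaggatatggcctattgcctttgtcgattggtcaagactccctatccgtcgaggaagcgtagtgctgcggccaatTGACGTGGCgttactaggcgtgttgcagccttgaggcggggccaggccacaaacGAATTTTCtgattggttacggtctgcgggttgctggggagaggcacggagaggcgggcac
Both hold 1 antioxidant response core and 1 heat shock core. Of all 32851 promoters in the table, 10.2% hold the former and 6.69% the latter in these 250 bases, while 6.02% hold CACGTG and 3.45% TGATGNAA. Sod1 fell, and Vcp had a log2 fold change of -0.05 in TDP-PBS mice that did not pass the test. Whether the matches bear on these changes was not tested. The matches describe the letters only. The windows of Optn and Pfn1 in that table lie within the gene spans given here, so the absence of a match there concerns those bases alone.

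Kif5a (chr10:127225695-127266348, minus strand), a neuronal kinesin-1 heavy chain, rose in TDP-PBS and TDP-15 mice. It ranged from 2001 to 2843 CPM with a median of 2459 in ctrl-PBS mice. The TDP-PBS mice ranged from 2293 to 3439 CPM with a median of 2879, the TDP-10+12 mice from 2304 to 3067 CPM with a median of 2621, and the TDP-15 mice from 2655 to 3203 CPM with a median of 2822. Above every control mouse were 6 TDP-PBS, 2 TDP-10+12 and 5 TDP-15 mice. Its log2 fold change was 0.22 (SE 0.06, adjusted p = 0.000921) in TDP-PBS and 0.24 (SE 0.05, adjusted p = 0.000187) in TDP-15 mice. In TDP-10+12 mice it was 0.12 (SE 0.06, adjusted p = 0.0737) and passed the test without any 1 of 14 mice, among them mouse 301 (0.16, adjusted p = 0.0251). It also passed with limma-voom (0.15, adjusted p = 0.0146).

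Pfn1 (chr11:70651844-70656799, minus strand), the gene of profilin 1, rose in all rNLS8 groups. It ranged from 216 to 300 CPM with a median of 257 in ctrl-PBS, from 258 to 358 CPM with a median of 295 in TDP-PBS, from 249 to 374 CPM with a median of 298 in TDP-10+12 and from 239 to 373 CPM with a median of 300 in TDP-15 mice. Above every control mouse were 4, 4 and 6 mice of these groups. In TDP-PBS mice the rise was 16.8% (log2 fold change 0.22, SE 0.06, adjusted p = 0.00244). It was 0.24 (adjusted p = 0.00117) in TDP-10+12 and 0.23 (adjusted p = 0.00102) in TDP-15 mice on the log2 scale. The highest value, 374 CPM, came from mouse 301.

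Nek1 (chr8:60993157-61131349, plus strand), a member of the NIMA-related kinases, fell in all rNLS8 groups, less firmly in the immunized groups. It ranged from 18.7 to 30.0 CPM with a median of 24.2 in ctrl-PBS, from 17.0 to 25.5 CPM with a median of 20.0 in TDP-PBS, from 19.0 to 23.9 CPM with a median of 21.8 in TDP-10+12 and from 16.3 to 27.7 CPM with a median of 21.8 in TDP-15 mice. Only 2 TDP-PBS, 0 TDP-10+12 and 2 TDP-15 mice lay below every control mouse. The log2 fold change was -0.27 (SE 0.07, adjusted p = 0.00238) in TDP-PBS, -0.19 (SE 0.07, adjusted p = 0.0343) in TDP-10+12 and -0.17 (SE 0.07, adjusted p = 0.0405) in TDP-15 mice. The call in TDP-10+12 was lost without any 1 of 10 mice, among them TDP-10+12 mouse 130 and ctrl-PBS mouse 343 (adjusted p from 0.0210 to 0.0933 over all mice left out in turn). The call in TDP-15 was lost without any 1 of 33 of the 49 mice (0.0136 to 0.101).

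For Matr3 on chromosome 18, the median was 199 CPM in ctrl-PBS, 196 in TDP-PBS, 193 in TDP-10+12 and 193 in TDP-15 mice, with a range over all groups from 172 to 225 CPM. The groups overlapped almost completely. The log2 fold change was -0.01 (95% interval -0.08 to 0.07) in TDP-PBS, -0.01 (-0.08 to 0.07) in TDP-10+12 and 0.00 (-0.07 to 0.07) in TDP-15 mice, so that these data leave room for changes of up to 5.7% downward and 5.2% upward. Of its exonic length, 17.3% is shared with Gm28285 on the same strand, and transcripts of 23 genes match it at 95% identity or more over at least 100 bp.

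Comparing the immunized groups with TDP-PBS asked whether vaccination moved these genes. None of the 9 passed in TDP-10+12 against TDP-PBS, in TDP-15 against TDP-PBS or in TDP-10+12 against TDP-15, and neither did any of the 18220 genes (0% in each), although 953, 552 and 1244 genes had an unadjusted p under 0.05 in edgeR. By limma-voom 2 genes passed in the first of these comparisons, neither of them among the 9, and by DESeq2 0 genes passed in any. In edgeR, Optn had an unadjusted p under 0.05 in TDP-10+12 against TDP-15 (log2 fold change -0.16, 95% interval -0.30 to -0.02, p = 0.0244, adjusted p = 0.658), and the other 8 genes did not in any of the 3 comparisons. Without mouse 301 this difference was -0.11 (p = 0.0945, adjusted p = 0.823), whereas that of Ubqln2 between the same groups was 0.12 (p = 0.0140, adjusted p = 0.617). By limma-voom 1 of the 9 genes had an unadjusted p under 0.05 in TDP-10+12 against TDP-PBS and 2 in TDP-10+12 against TDP-15. Ubqln2 differed by -0.09 between TDP-15 and TDP-PBS (95% interval -0.18 to 0.01) and by 0.00 between TDP-10+12 and TDP-PBS (-0.11 to 0.10). For Sqstm1 in TDP-10+12 against TDP-PBS the difference was -0.08 (-0.16 to 0.00), and for Kif5a in TDP-10+12 against TDP-15 it was -0.11 (-0.24 to 0.01). In the order of group means, ctrl-PBS stood at one end for the 7 genes that changed in TDP-PBS, and its neighbour, TDP-10+12, did not pass against it for Sqstm1 and Kif5a. For none of the 9 genes did neighbouring rNLS8 groups in that order differ beyond the spread between mice.

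Sex gave no call among the 9 genes. With group in the model, 17 genes (0.0933%) differed between males and females, and 0 of the 9 had an unadjusted p under 0.05. DESeq2 also gave 0 of the 9. In the 27 PBS-treated mice the genotype effect differed between sexes for 0 of 17363 genes tested (0%), with 1097 at an unadjusted p under 0.05 in edgeR. For the 9 genes the smallest such p was that of Kif5a (difference of the genotype effect, males minus females, -0.23 on the log2 scale, 95% interval -0.48 to 0.02, p = 0.0725, adjusted p = 0.799).

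After the group mean was taken off, the 9 genes varied little with each other from mouse to mouse. Over the 36 pairs, Pearson's r of log2 CPM across 49 mice ranged from -0.45 for Pfn1 with Nek1 to 0.39 for Sod1 with Sqstm1, with a median of -0.03, and no pair exceeded 0.5 in size. Optn and Kif5a had an r of 0.36, and Optn and Matr3 one of -0.40. The labels name no sequencing run or batch for the mice, and these values are descriptions without a test. The tested genes most like each member by the same measure were Atp5a1 for Sod1 (r = 0.76), Zbtb22 for Optn (0.72), Gfm2 for Vcp (0.61), Gm2451 for Sqstm1 (0.76) and Fam102a for Ubqln2 (0.71). They were Pafah1b1 for Matr3 (0.77), Surf4 for Pfn1 (0.70), Osbpl1a for Kif5a (0.79) and Cpd for Nek1 (0.69). Each is the highest r over 18211 genes, and how high such a maximum runs for other genes was not determined. The measure leaves out the group means. In TDP-PBS against ctrl-PBS mice Atp5a1 fell (log2 fold change -0.17) as Sod1 did, whereas Zbtb22 fell (-0.28) while Optn rose.

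**Figure D3:**
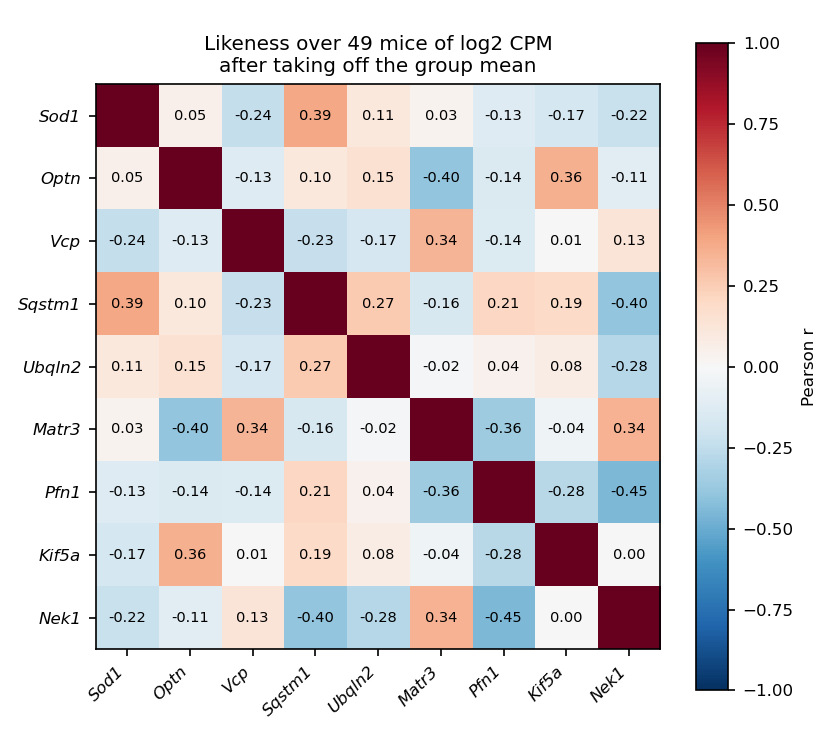
Pearson's r between the 9 genes (rows and columns) over 49 mice, from log2 CPM with the mean of each mouse's group taken off, from blue (-1) to red (1). All 36 pairs lie between -0.45 and 0.39.

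Paralogs of 4 of the genes were set beside them in the same mice. Kif5b, the kinesin-1 heavy chain expressed in most cell types, rose in TDP-PBS mice from 126 ± 13.4 (SD, n = 17) to 197 ± 18.8 CPM (SD, n = 10; log2 fold change 0.64, adjusted p = 1.22e-12). Kif5c, the other neuronal heavy chain, fell from 524 ± 53.2 to 371 ± 37.1 CPM (-0.50, adjusted p = 2.40e-10), while Kif5a rose. The log2 ratio of Kif5a to Kif5c counts was 2.07 to 2.47 in ctrl-PBS and 2.69 to 3.21 in TDP-PBS mice, and its mean increased by 0.71. The ratio of Kif5a to Kif5b changed in the other direction, by -0.42 in the mean. How often the ratios of other gene pairs separate these groups was not determined.

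Relative to its paralogs Ubqln1 and Ubqln4, Ubqln2 was lower in TDP-PBS than in ctrl-PBS mice. Ubqln1 fell by 0.11 on the log2 scale (adjusted p = 0.00232), and Ubqln4 changed by -0.08 without passing (adjusted p = 0.232). In the immunized groups Ubqln4 did fall, by 0.13 in TDP-10+12 (adjusted p = 0.0384) and by 0.17 in TDP-15 mice (adjusted p = 0.00300). The log2 ratio of Ubqln2 to Ubqln1 decreased from a mean of 0.79 ± 0.07 (SD, n = 17) to 0.42 ± 0.11 (SD, n = 10), and that to Ubqln4 from 0.18 ± 0.13 to -0.22 ± 0.15. Pfn2, the profilin most abundant in neurons, fell by 0.10 in TDP-PBS mice (adjusted p = 0.0297), and the log2 ratio of Pfn1 to Pfn2 increased by 0.33. Pfn2 also fell in TDP-10+12 mice (-0.10, adjusted p = 0.0360) but did not pass in TDP-15 mice (-0.07, adjusted p = 0.127). In TDP-PBS mice the remaining paralog behaved as follows. Mitochondrial Sod2 fell by 0.43 (adjusted p = 1.14e-09). For the ratio of Sod1 to Sod2 the change of 0.16 did not pass. These 6 ratios were chosen after the data had been seen. A two-sided permutation test with 100000 resamples gave p = 1e-05, the smallest possible (adjusted p = 1.2e-05), for all but Sod1 to Sod2 (p = 0.102). Every ratio holds a gene that had already passed the test in the same mice. The small p-values therefore restate those changes and add no separate support.

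**Figure D4:**
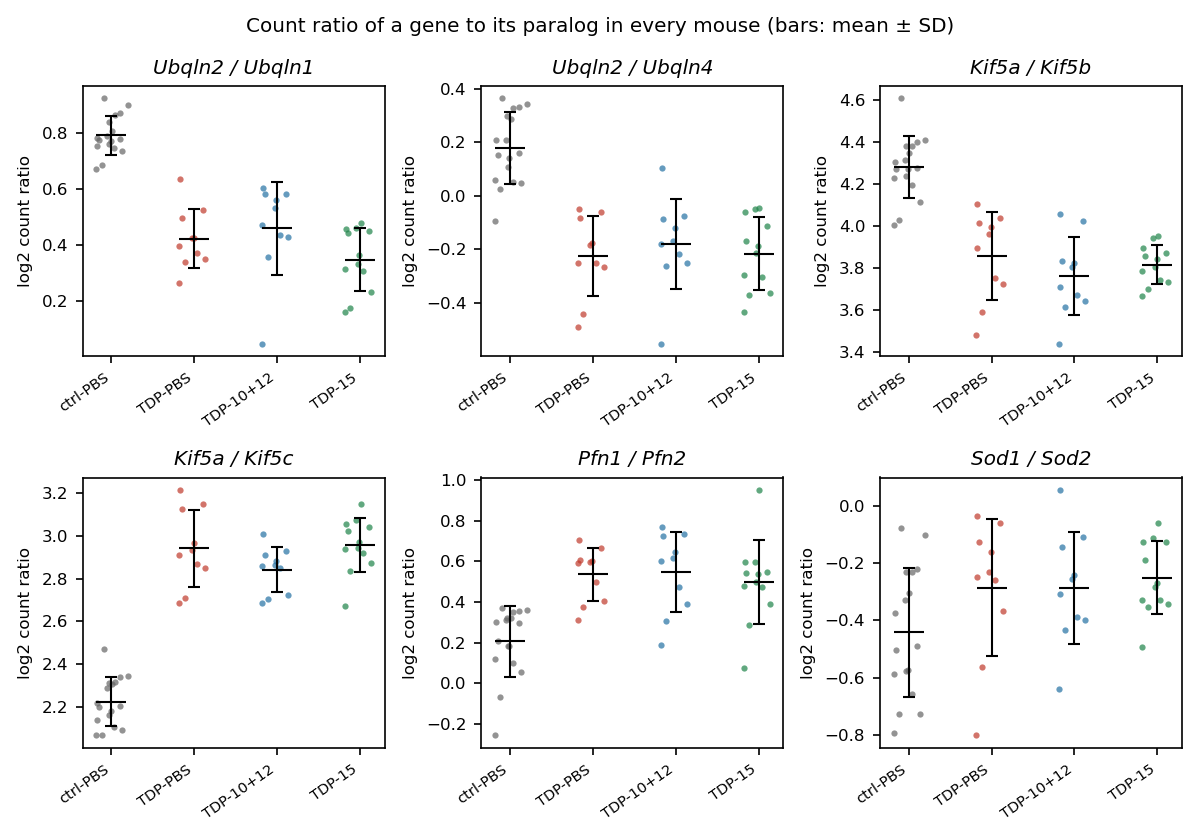
Log2 ratio of the counts of each gene to a paralog (y axes, not starting at 0) in every mouse by group (points), with bars for mean ± SD. From ctrl-PBS to TDP-PBS mice the mean log2 ratio of Kif5a to Kif5c changed by 0.71, and that of Ubqln2 to Ubqln1 by -0.37.

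Of 29 tested genes from the wider set of ALS-linked genes, 5 rose and 10 fell in TDP-PBS mice, with a median log2 fold change of -0.02. Grn, which encodes the lysosomal and secreted growth factor progranulin, rose by 0.89 (adjusted p = 3.27e-14), and the RNA-binding protein gene Hnrnpa1 by 0.19 (adjusted p = 0.000292). The tubulin gene Tuba4a fell by 0.55 (adjusted p = 7.55e-14) and Vapb, a membrane contact protein of the endoplasmic reticulum, by 0.28 (adjusted p = 2.47e-12). Dao was listed but too low to be tested. In TDP-10+12 mice 3 rose and 8 fell, and in TDP-15 mice 5 rose and 8 fell.

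Around the autophagy receptors, 7 of 28 genes rose and 7 fell in TDP-PBS mice (median 0.00). The receptor gene Calcoco1 rose by 0.33 (adjusted p = 1.69e-08) and Map1lc3b, which encodes an LC3 protein of the autophagosome membrane, by 0.26 (adjusted p = 6.12e-07). Becn1, a subunit of the lipid kinase that starts autophagosomes, fell by 0.41 (adjusted p = 7.55e-14) and the kinase Ulk2 by 0.32 (adjusted p = 1.72e-08). The numbers were 7 and 8 in TDP-10+12 and 8 and 7 in TDP-15 mice. Among the cofactors of Vcp 12 of 26 rose and 6 fell (median 0.09), while 21.9% of all genes tested rose and 21.6% fell. Vcp itself did not pass. Ufd1, an adaptor of Vcp in the degradation of proteins of the endoplasmic reticulum, rose by 0.52 (adjusted p = 1.11e-13) and Selenos, a membrane selenoprotein of the same route, by 0.42 (adjusted p = 1.50e-09), whereas the UBX domain genes Ubxn2b and Ubxn11 fell by 0.31 (adjusted p = 1.39e-05) and 0.40 (adjusted p = 1.86e-05). The numbers of cofactors were 12 and 6 in TDP-10+12 and 13 and 6 in TDP-15 mice.

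Of 11 tested ubiquilins and partners 3 rose and 3 fell in TDP-PBS mice (median -0.03). Bag6, a chaperone for membrane proteins, rose by 0.26 (adjusted p = 0.00101) and the proteasomal ubiquitin receptor Psmd4 by 0.13 (adjusted p = 0.00997). The ubiquitin ligase Stub1 fell by 0.33 (adjusted p = 7.07e-09) and the shuttle factor Rad23b by 0.20 (adjusted p = 2.40e-06). The numbers were 2 and 4 in TDP-10+12 and 3 and 4 in TDP-15 mice.

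Of 22 tested profilins and genes of actin assembly 3 rose and 10 fell (median -0.08), and Pfn3 was too low to be tested. Vasp, an elongator of actin filaments, rose by 0.36 (adjusted p = 9.78e-06) and beta-actin, Actb, by 0.16 (adjusted p = 0.000357). Actr3 of the Arp2/3 complex fell by 0.62 (adjusted p = 7.26e-18) and Wasf1, which activates that complex, by 0.63 (adjusted p = 7.89e-14). The numbers were 4 and 9 in TDP-10+12 and 3 and 8 in TDP-15 mice. Among 16 genes of kinesin-1 and its adaptors 4 rose and 9 fell (median -0.19). The mitochondrial adaptor Trak2 rose by 0.24 (adjusted p = 4.99e-05), the light chain Klc1 fell by 0.44 (adjusted p = 1.84e-14) and the mitochondrial GTPase Rhot1 by 0.39 (adjusted p = 7.96e-12). In TDP-10+12 mice 2 rose and 9 fell, and in TDP-15 mice 4 rose and 9 fell.

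Of the 10 other NIMA-related kinases 1 rose and 3 fell in TDP-PBS mice (median -0.06), namely Nek3, which rose by 0.47 (adjusted p = 0.00316) from a low mean of 1.53 CPM, and among those that fell Nek4, by 0.18 (adjusted p = 0.0125), and Nek7, by 0.16 (adjusted p = 0.0130). They numbered 2 and 2 in TDP-10+12 and 2 and 3 in TDP-15 mice. Of 14 enzymes of superoxide and peroxide removal 3 rose and 3 fell (median 0.03). The thioredoxin reductase Txnrd1 rose by 0.18 (adjusted p = 0.00104) and the peroxiredoxin Prdx4 by 0.32 (adjusted p = 0.00507), while thioredoxin, Txn1, fell by 0.28 (adjusted p = 3.45e-05). They numbered 2 and 3 in TDP-10+12 and 4 and 4 in TDP-15 mice. Of all genes tested, 21.9% rose and 21.6% fell in TDP-PBS mice. The shares were 20.8% and 20% in TDP-10+12 and 23.6% and 23.2% in TDP-15 mice. Beside these shares, the counts of all the lists above are descriptions and were not tested as sets.

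**Figure D5:**
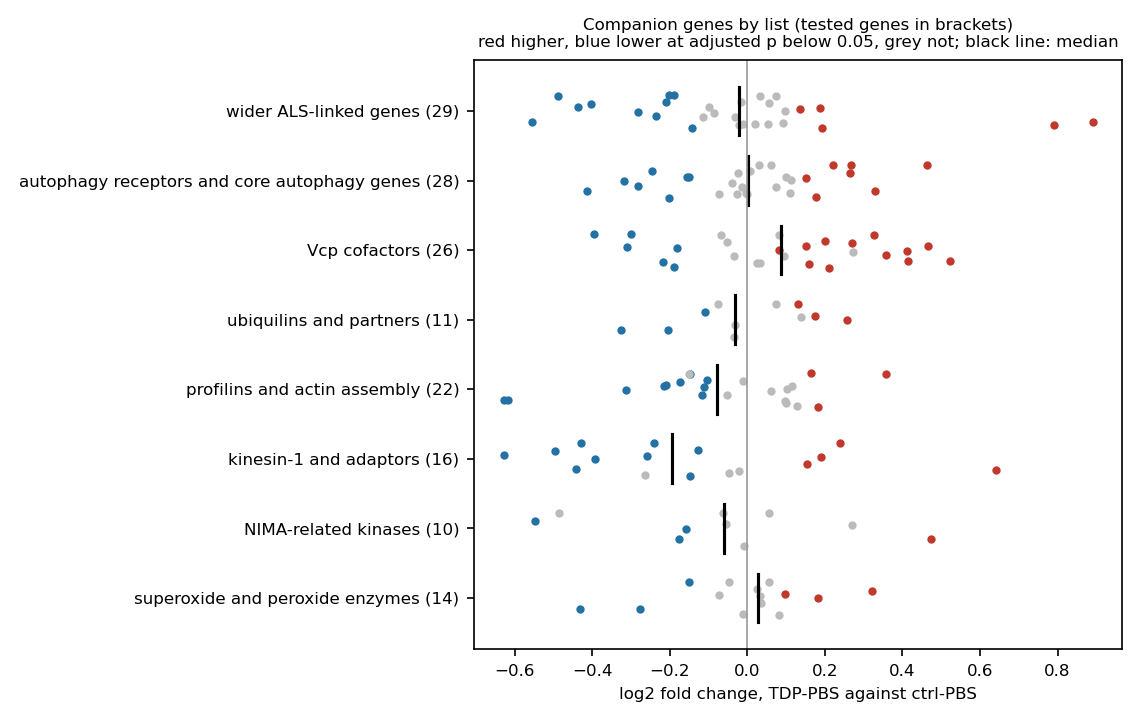
Log2 fold change of TDP-PBS over ctrl-PBS mice (x axis) for each tested gene of the 8 companion lists (rows), red for genes that rose, blue for genes that fell and grey for genes that did not pass, with a black line at the median of each list. The medians run from -0.19 for kinesin-1 and adaptors to 0.09 for the cofactors of Vcp.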

How the data were processed

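Libraries were prepared from neocortical mRNA and sequenced as 100 bp paired-end reads. The values are raw read counts by gene for each mouse, which the authors deposited after alignment to GRCm38.p6. Their processing notes name HISAT, HISAT2, Bowtie, Bowtie2, RSEM and mm10, without roles, and the counting, annotation and strand setting are not given in the sources used here. The study used DESeq2.

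Groups and sexes were taken from the labels. No pair of libraries within a group was a copy (smallest chi-squared per degree of freedom 7.24). Genes were kept by filterByExpr with the groups given (minimum count 10, minimum total 15). After TMM scaling all 49 mice were fitted with glmQLFit and glmQLFTest (edgeR 4.0.16, R 4.3.3). P-values are two-sided and Benjamini-Hochberg adjusted over all genes tested, with 0.05 as the threshold. They measure the spread between these mice. Log2 CPM used a prior count of 2. Standard errors come from the F statistic of the same test and the intervals from these errors, so both include the spread between mice. The floor of 3 counts covers counting error only. Alternatives were other scalings, no filter, sex or 2 surrogate variables (sva 3.50.0) as covariates, DESeq2 1.42.0, limma-voom (limma 3.58.1) with weights for sample quality, fits limited to the groups compared, each mouse left out, and Fam205a3 as a covariate. Those chosen after seeing the data were the paralog ratios (with 0.5 or 5 counts added), added pseudogene counts and the principal transcript length. The counts without mouse 301 and without mice high in markers of other tissue were also chosen then. Near-identical transcripts (at least 95% over 100 bp) were sought with blastn 2.17.0. Positions and promoters are RefSeq's, and exonic lengths and transcripts are those of GENCODE M21. Of the companions, up to 2 that rose and 2 that fell with the smallest adjusted p in TDP-PBS were named per list, besides direct paralogs and the gene most like each member. The members and lists were chosen with earlier results of these data known. The statistical steps were tested on simulated data. In the simulated counts far fewer genes changed than in these mice, and only in the TDP-PBS group. Changes as widespread as those found here were not simulated. Figures were drawn with matplotlib 3.10.9.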

Additional observations from a re-analysis of the deposited data

Results flagged for a closer look

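In 18 groups of 10 samples (9 genes in TDP-PBS and in TDP-10+12 mice), 1 value lay far from the others: Optn in the TDP-10+12 mouse 301, at 10.2 CPM against 14.8 CPM in the next lowest mouse of its group. Chance alone flags about 1 in 20 such groups. Mouse 301 was the highest or lowest of its group for 6 of the 9 genes, among them Ubqln2 at 167 CPM and Pfn1 at 374 CPM.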

How the results depend on the processing

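Against ctrl-PBS, 7 of the 9 genes passed the test in TDP-PBS mice, and 6 or 7 under the alternatives. In TDP-10+12 mice 5 passed, and 4 to 7 under the alternatives. In TDP-15 mice 7 passed, and 5 to 7 under the alternatives. The number stayed at 0 in the comparisons among rNLS8 groups and in both tests of sex, under every alternative run. For the 3 comparisons with ctrl-PBS, 203 of 216 values per gene and alternative kept their direction and side of the threshold. Of the rest, 10 were no longer past it, 2 newly passed it and 1 reversed. These values leave out the fits without single mice, with Fam205a3, with pseudogene counts and without the mice high in markers of other tissue. Leaving out single mice changed the calls of Sqstm1, Nek1 and Kif5a given above. The 1 reversal was Matr3 in TDP-PBS mice, at 0.0015 with only the 2 groups compared. In the fits left out, again only Matr3 reversed. With each mouse left out it was -0.0187 to 0.0154 in TDP-PBS, -0.0226 to 0.0181 in TDP-10+12 and -0.0075 to 0.0256 in TDP-15 mice. In TDP-15 mice it was -0.0068 without the mice high in olfactory bulb or choroid plexus markers. The calls near the threshold were those of Sqstm1 and Nek1. Without a filter on low counts Sqstm1 in TDP-PBS mice had an adjusted p of 0.0503 and Nek1 in TDP-10+12 mice one of 0.0693, while limma-voom called Vcp in TDP-10+12 mice (0.0410). Nek1 in TDP-15 mice ranged from 0.0419 to 0.0731 over the 8 alternatives and was lost under 4. Other scalings moved the median of all genes by at most 0.004 on the log2 scale. The cause of these differences was not tested. The paper states that littermates were spread over the groups. No analysis paired by litter was possible, because the labels give each mouse its own number and no litter. Depth limits the lowest genes, Optn and Nek1, to 204 and 326 counts in their lowest mice.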
